A study of Mus musculus with 2 samples.

Results

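The autophagy machinery was described through 38 genes, of 43346 genes in the deposited tables, chosen by name for their place in the pathway and found in the tables by gene identifier. They cover initiation (5 genes), nucleation (6), membrane supply and lipid transfer (5), the conjugation enzymes (10), the Atg8 proteins (5), cargo receptors (3) and lysosomal regulation (4). The samples were whole hearts of newborn mice, strain B6NTac;B6NCrl/Lap, taken at age 0 days, male and female pooled, healthy by their label and with no treatment or engineered allele named. The 2 biological replicates came from independent isolates of heart tissue and carry the same donor label. Replicate 1 pooled 15 mice, and the number for replicate 2 was not given. All samples formed 1 group, so no test between conditions was possible, and a single difference between 2 libraries carries no p-value.

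Autophagy encloses cytoplasm in a double membrane, the autophagosome, and delivers it to lysosomes. The ULK1 kinase complex starts the process, a phosphatidylinositol 3-kinase complex marks the growing membrane, and ubiquitin-like conjugation attaches Atg8 proteins to it. Cargo receptors bind Atg8 proteins, and lysosomal enzymes degrade the contents. In mice autophagy is known to be induced in the heart and other tissues in the hours after birth, when supply through the placenta ends. Autophagosome number and flux are set largely at the protein level and were not measured here.

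Whole hearts hold several cell types, so fewer cells of a type and less RNA per cell cannot be told apart. Expected counts, the authors' estimates of read pairs per gene, summed to 69946215 and 73615802 over genes, of which the 38 genes took 0.215% and 0.208%. All 8 cardiomyocyte markers were detected, with a summed level of 11699.5 TPM in replicate 1 and 11921.2 in replicate 2. TPM is a transcript abundance per length, relative to the whole library. The 5 smooth muscle markers summed to 325 and 654 TPM, with 3 of 5 at least 2-fold higher in replicate 2. The 4 urothelial markers summed to 5.08 and 61.5 TPM, with Upk2 and Krt5 at 0 counts in replicate 1. The 7 thymocyte markers summed to 5.60 and 0.01 TPM, with Dntt and Cd3e at 0 counts in both replicates. The remaining lists gave 499 and 624 TPM for 7 fibroblast and matrix markers, 146 and 136 for 6 endothelial, 41.5 and 43.4 for 6 macrophage and 3111.5 and 3726.1 for 6 erythroid markers. The part of these shifts in any difference between the replicates given below was not tested.

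Of the 38 genes, 36 (94.7%) were detected, meaning that each replicate held 1 TPM or more, where 47.1% of all protein-coding genes were. Atg14 and Atg4c were the exceptions, each under 1 TPM in a different replicate. The median level of the 38 genes was 9.45 TPM, where the median of the 10112 detected protein-coding genes was 7.56, and 23 of the 38 lay above it. Levels spanned from 195 ± 28.2 TPM (SD, n = 2) for Map1lc3a to 0.775 ± 0.912 for Atg14. There were 7 genes, namely Map1lc3a, Lamp1, Gabarap, Sqstm1, Map1lc3b, Lamp2 and Nbr1, that averaged 30 TPM or more, while 10 stood between 10 and 30, 11 between 5 and 10, and 10 under 5. These 7 were Atg8 proteins, cargo receptors and lysosomal membrane proteins, and no kinase, lipid-transfer or conjugation gene was among them. In this order, 30 of the 37 neighbouring genes overlapped in their replicate values. The 7 steps without overlap lay between Map1lc3a and Lamp1, Lamp1 and Gabarap, Sqstm1 and Map1lc3b, Map1lc3b and Lamp2, Nbr1 and Atg9a, Atg2a and Pik3c3, and Atg4a and Atg3.

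**Figure D1:**
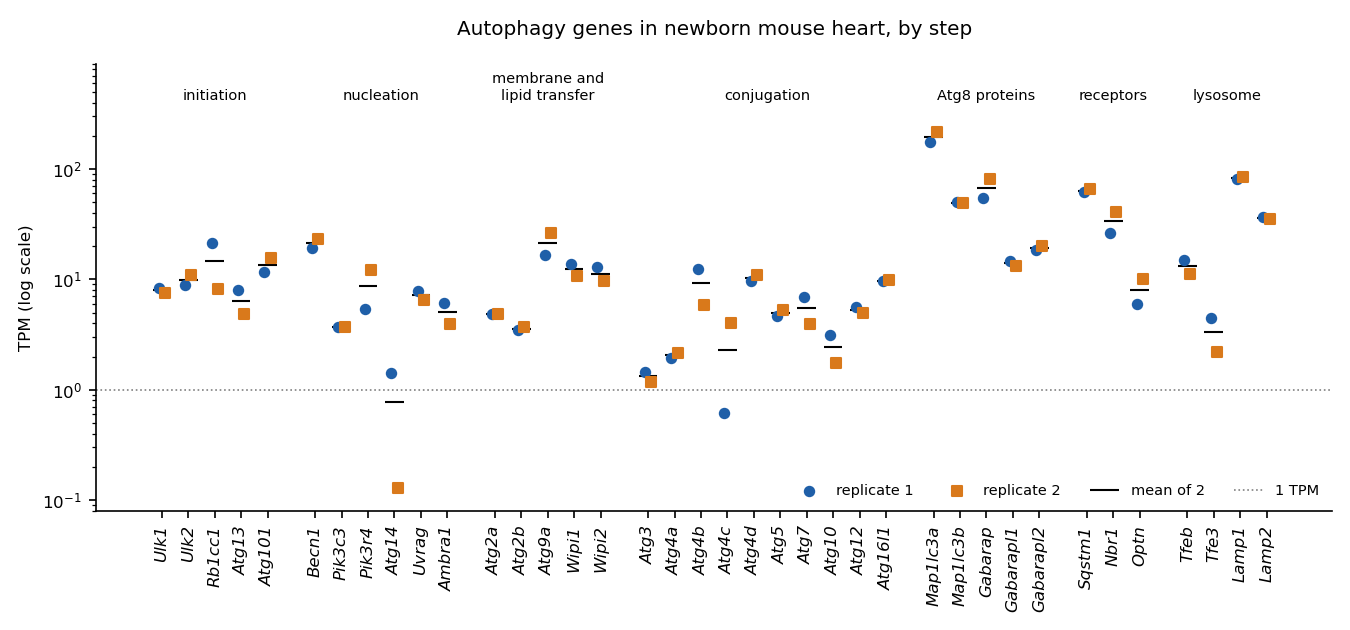
TPM on a log axis for the 38 autophagy genes, grouped by step, with a circle for replicate 1, a square for replicate 2 and a bar for their mean. Map1lc3a stands highest at 175 and 215 TPM, and Atg14 and Atg4c are the genes with a point below the dotted line at 1 TPM.

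The initiation complex was present at moderate levels, led in mean TPM over all transcripts by Rb1cc1 and Atg101. Ulk1, the kinase that receives signals from nutrient-sensing kinases, stood at 8.28 and 7.58 TPM in replicates 1 and 2, and its paralog Ulk2 at 8.83 and 10.9. In TPM over all transcripts Ulk1 was below Ulk2 in each replicate, by 1.07-fold and 1.43-fold. In coding transcripts with a complete reading frame Ulk1 was above Ulk2, at 8.28 and 7.58 against 6.27 and 6.91 TPM. In expected counts Ulk1 was below Ulk2, at 4305 and 4135 against 4381 and 5423. Atg101, a small subunit that stabilises Atg13, was at 11.6 and 15.7 TPM, and Atg13, the adaptor that links kinase and scaffold, at 8.02 and 4.81. Rb1cc1, which encodes the scaffold FIP200, was at 21.3 and 8.26 TPM (ENSMUSG00000025907.10, GRCm38 chromosome 1, 6206197 to 6276648, plus strand). It was thus the highest of the 5 in replicate 1 and below Atg101 and Ulk2 in replicate 2. In coding transcripts with a complete reading frame alone, Rb1cc1 was at only 3.08 and 3.59 TPM. On that measure it was the lowest of the 5 in replicate 1 and close to Atg13 (3.54), the lowest, in replicate 2. Atg101 was then the highest in both.

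Nucleation genes were led, in TPM over all transcripts, by Becn1, the subunit that ties the lipid kinase to its regulators. It stood at 19.1 and 23.3 TPM (ENSMUSG00000035086.9, chromosome 11, 101285952 to 101302286, minus strand). Pik3c3, the catalytic subunit VPS34, was lower, at 3.72 and 3.67 TPM, and its values nearly coincided. Pik3r4, which encodes the regulatory subunit VPS15, was at 5.35 and 12.03 TPM, and Ambra1, a Beclin-1 partner, at 6.12 and 3.91. The kinase complex exists in alternative forms that carry either ATG14 or UVRAG. Uvrag, found in the form that acts at endosomes and late in autophagy, was at 7.86 and 6.52 TPM, and Atg14, found in the form that starts autophagosomes, at 1.42 and 0.13. Atg14 was below Uvrag by 5.54-fold in replicate 1 and 50.2-fold in replicate 2. In coding transcripts with a complete reading frame alone, Becn1 was at 2.59 and 9.89 TPM. In replicate 1 this was below Uvrag (7.86), Ambra1 (5.98), Pik3c3 (3.37) and Pik3r4 (3.26), and in replicate 2 it was above them all. The replicate 2 level was made of 4.10 TPM of Becn1-216, only 725 bases long, 3.90 of Becn1-217 and 1.89 of Becn1-205. A complete reading frame here means only that the annotation marks no missing start or end.

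Atg14 was the lowest member and the one least alike between the replicates. It drew 475 expected counts in replicate 1 (95% Poisson interval 433 to 520) and 45 in replicate 2 (32.8 to 60.2), intervals that cover counting error only. It has 1 transcript in the tables, of the same effective length in both libraries, so its TPM and counts show the same order. The gene lies on chromosome 14 from 47540893 to 47570649, minus strand (ENSMUSG00000037526.6). With a mean below 1 TPM it fell outside the counts of 2-fold differences given below.

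Among genes for membrane supply, Atg9a, the scramblase carried on vesicles to the growing membrane, was at 16.7 and 26.3 TPM. By other measures Atg9a was lower in replicate 2. It drew 6415 and 5156 expected counts, and its coding transcripts with a complete reading frame were at 14.7 and 8.62 TPM. The lipid-transfer genes Atg2a and Atg2b were lower, at 4.87 and 4.85 TPM for Atg2a and 3.45 and 3.70 for Atg2b. In TPM over all transcripts Atg2a exceeded Atg2b in both replicates, by 1.41-fold and 1.31-fold. In coding transcripts with a complete reading frame Atg2a was below Atg2b, at 2.53 and 3.52 against 3.45 and 3.70 TPM. It also drew fewer expected counts, 2873 and 2561 against 3596 and 4050. Wipi1 and Wipi2, which read the lipid mark, were close to each other, Wipi1 at 13.9 and 10.8 TPM and Wipi2 at 12.8 and 9.66. Atg9b, the paralog of Atg9a, was near absent at 0.18 and 0.04 TPM. The expected counts of Atg9a, Map1lc3b and Atg4a were not whole numbers in at least 1 library, so some of their reads were shared with other genes and their values are uncertain to that extent.

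Conjugation enzymes lay in the lower part of the range. Atg7, the activating enzyme of both conjugation routes, was at 6.99 and 3.91 TPM. Of the conjugating enzymes, Atg3, which transfers Atg8 proteins to lipid, was at 1.46 and 1.18 TPM, and Atg10, which transfers Atg12, at 3.12 and 1.73. Atg7 exceeded Atg10 by 2.24-fold and 2.26-fold, and Atg3 was the lowest gene detected in both replicates. The other parts of the Atg12 route were nearer 5 to 10 TPM. Atg5 stood at 4.70 and 5.28 TPM, Atg12 at 5.56 and 4.97, and Atg16l1, which places the complex on membranes, at 9.60 and 9.79.

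The 4 ATG4 proteases, which trim Atg8 proteins before conjugation and release them from lipid, differed in level. Atg4d was at 9.63 and 10.9 TPM and Atg4b at 12.5 and 5.90, so their order over all transcripts turned between replicates. It also turned in expected counts, 2290 and 2715 for Atg4d against 3003 and 2538 for Atg4b. In coding transcripts with a complete reading frame Atg4b was at 5.67 and 5.34 TPM, below Atg4d in both replicates. Atg4a was lower at 1.95 and 2.15 TPM. Atg4c was at 0.61 and 4.01 TPM (ENSMUSG00000028550.11, chromosome 4, 99193934 to 99259787, plus strand), with 162 expected counts (138 to 189) against 718 (666 to 772). Atg4c was therefore the lowest protease gene in replicate 1 and above Atg4a in replicate 2.

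The 5 Atg8 genes supplied 41.5% of the TPM of the 38 genes in replicate 1 and 45.5% in replicate 2. Map1lc3a, an LC3 gene, was the highest, at 175 and 215 TPM, above 97.8% of detected protein-coding genes (ENSMUSG00000027602.5, chromosome 2, 155276297 to 155278073, plus strand). It made up 56.1% and 56.9% of the Atg8 sum. Map1lc3b, whose protein is the common marker of autophagosomes, was at 49.8 and 49.1 TPM. In TPM over all transcripts Map1lc3a exceeded it by 3.53-fold and 4.38-fold. In coding transcripts with a complete reading frame Map1lc3a was at 131 and 123 TPM against 49.0 and 46.7 for Map1lc3b. In expected counts, not divided by length, Map1lc3a was higher by only 1.19-fold and 1.32-fold. In the other subfamily Gabarap was highest at 54.2 and 80.5 TPM, followed by Gabarapl2 at 18.6 and 20.2 and Gabarapl1 at 14.8 and 13.3. Gabarap exceeded Gabarapl1 by 3.67-fold and 6.05-fold, and Gabarapl2 by 2.91-fold and 3.99-fold. The order of the lower genes held in TPM over all transcripts only. In coding transcripts with a complete reading frame Gabarapl1 was above Gabarapl2, at 14.8 and 13.3 against 8.04 and 4.68 TPM. It also drew more expected counts, 2298 and 2173 against 1690 and 1510.

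Of the receptors, Sqstm1, which encodes p62 and carries ubiquitinated cargo, was at 61.4 and 66.0 TPM (ENSMUSG00000015837.11, chromosome 11, 50199366 to 50210827, minus strand). Nbr1, a related receptor, was at 26.4 and 41.1 TPM, and Optn, which encodes optineurin and is known for damaged mitochondria, at 5.93 and 10.1. Their order was the same in both replicates, and Sqstm1 exceeded Optn by 10.4-fold and 6.51-fold.

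The lysosomal group joined abundant membrane proteins with lower transcription factors. Tfeb, a factor that activates lysosomal and autophagy genes, was at 15.0 and 11.2 TPM, and the related Tfe3 at 4.51 and 2.20 (ENSMUSG00000000134.13, chromosome X, 7762560 to 7775202, plus strand). Tfeb exceeded Tfe3 by 3.33-fold and 5.10-fold. Lamp1 was at 81.2 and 85.2 TPM (ENSMUSG00000031447.6, chromosome 8, 13159161 to 13175338, plus strand) and Lamp2 at 36.97 and 35.6 (ENSMUSG00000016534.11, chromosome X, 38401357 to 38456454, minus strand). Both encode heavily glycosylated proteins of the lysosomal membrane, and Lamp1 exceeded Lamp2 by 2.20-fold and 2.40-fold.

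Lamp2 makes proteins that share a luminal part and differ in the membrane span and cytosolic tail, through a choice among 3 final coding exons. Loss of human LAMP2 causes Danon disease, which affects the heart, and LAMP-2A is the form known for chaperone-mediated autophagy. In newborn heart the LAMP-2B transcript Lamp2-202 led, at 27.9 TPM in replicate 1 and 21.5 in replicate 2, or 75.4% and 60.4% of the gene. The LAMP-2A transcript Lamp2-201 followed at 6.42 and 11.1 TPM (17.4% and 31.1%), and the LAMP-2C transcript Lamp2-203 at 2.03 and 1.34 (5.50% and 3.76%). The order B, A, C held in both replicates, and the share of A was higher in replicate 2. The coding parts of the 9th coding exon are shown because the forms differ there. They come from the GENCODE M21 transcripts on GRCm38, all on chromosome X and the minus strand, and each is followed by the stop codon. Capitals mark the last 33 bases, the end of the coding sequence, where A and B have the same base at 14 positions, A and C at 15 and B and C at 21.
LAMP-2B, Lamp2-202, chrX:38421715-38421851: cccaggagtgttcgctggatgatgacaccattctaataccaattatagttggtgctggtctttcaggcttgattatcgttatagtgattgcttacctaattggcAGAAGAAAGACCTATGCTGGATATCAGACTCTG
LAMP-2A, Lamp2-201, chrX:38405435-38405571: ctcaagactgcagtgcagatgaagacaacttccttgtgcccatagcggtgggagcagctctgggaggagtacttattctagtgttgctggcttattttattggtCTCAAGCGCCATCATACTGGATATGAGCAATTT
LAMP-2C, Lamp2-203, chrX:38402142-38402281: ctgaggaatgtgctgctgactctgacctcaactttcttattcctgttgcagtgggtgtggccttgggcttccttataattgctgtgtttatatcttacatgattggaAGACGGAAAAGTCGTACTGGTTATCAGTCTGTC

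TFEB, TFE3 and MITF belong to a family that binds the E-box CACGTG, the core of the element shared by many lysosomal genes. Its letters, which read the same on both strands, were searched from 250 bases before to 50 after each RefSeq start site on GRCm38.p6. The table held 32 of the 38 genes, without Becn1, Map1lc3a, Atg16l1, Pik3c3, Atg12 and Rb1cc1. The E-box was in 5 of the 32 (15.6%), where 8.09% of the 27025 genes in the table did, and 8 of 13 genes (61.5%) of a list of lysosomal enzymes and membrane proteins did. The 5 were Atg3, Atg5, Atg7, Atg14 and Lamp1, and Lamp1 held 4 copies, between 61 and 15 bases before its start. For Atg7 and Atg14 the RefSeq start used lies inside the GENCODE gene, not at its outer end. That end is at 114643097 for Atg7 (plus strand) and 47570649 for Atg14 (minus strand). The windows below show each match in capitals with 10 bases on either side, and overlapping windows are joined. Their genes ranged from Atg14, the lowest member, to Lamp1, the second highest, and a match is not evidence of binding.
Lamp1, chr8:13159090-13159161, plus strand: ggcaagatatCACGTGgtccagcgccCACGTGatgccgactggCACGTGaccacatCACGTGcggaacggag
Atg3, chr16:45158725-45158773, plus strand: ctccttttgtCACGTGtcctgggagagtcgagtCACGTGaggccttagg
Atg5, chr10:44268315-44268340, plus strand: gagcgcttgcCACGTGgtcttggtga
Atg7, chr6:114670954-114670979, plus strand: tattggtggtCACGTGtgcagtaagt
Atg14, chr14:47568420-47568445, minus strand: aacaaaatccCACGTGactggccctg

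Ratios between 22 pairs of related genes were set against the spread between the replicates, here with 0.1 TPM added to each value. The limit was a log2 ratio of 2.15, the size that 95% of 11594 genes averaging at least 1 TPM stayed within between replicates. It was exceeded in both replicates, with 1 sign, by 3 pairs. Atg9a exceeded Atg9b by a log2 ratio of 5.90 and 7.56, Sqstm1 exceeded Optn by 3.35 and 2.69, and Uvrag exceeded Atg14, whose log2 ratio to Uvrag was -2.39 and -4.85. Atg9b (mean 0.11 TPM) and Atg14 (0.775) lie below the level of the genes that set the limit. Atg14 itself differed between replicates by a log2 of -2.75, more than the limit. No share over pairs of other genes is given, so the counts of pairs are a description only. In TPM over all transcripts the direction was the same in both replicates for 17 of the other 19 pairs. Atg4b with Atg4d and Atg12 with Atg5 turned. In coding transcripts with a complete reading frame Atg4d was above Atg4b in both replicates. On that measure Ulk1 with Ulk2, Atg2a with Atg2b, and Gabarapl1 with Gabarapl2 had the opposite order in both replicates. Some pairs passed the limit in 1 replicate only. These were Gabarap over Gabarapl1 at 1.87 and 2.59 and Tfe3 over Tfeb at -1.72 and -2.30. The others were Atg4b over Atg4a at 2.62 and 1.42 and Atg4b over Atg4c at 4.15 and 0.55. The LC3 pair Map1lc3a and Map1lc3b came near the limit without passing it, at 1.82 and 2.13, as did Nbr1 with Optn at 2.13 and 2.01. The limit was computed anew under the alternatives that follow. With 1 TPM added in place of 0.1 it was 1.497 and 7 pairs were past it, with genes averaging 10 TPM it was 1.28 and 9 pairs were, and at the 99th percentile it was 4.85 and only Atg9a over Atg9b was. With posterior mean TPM the limit was 2.43, and Atg14 with Uvrag no longer passed it although their ratio moved little, by 5.23-fold and 28.5-fold on this scale against 5.24-fold and 28.8-fold.

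**Figure D2:**
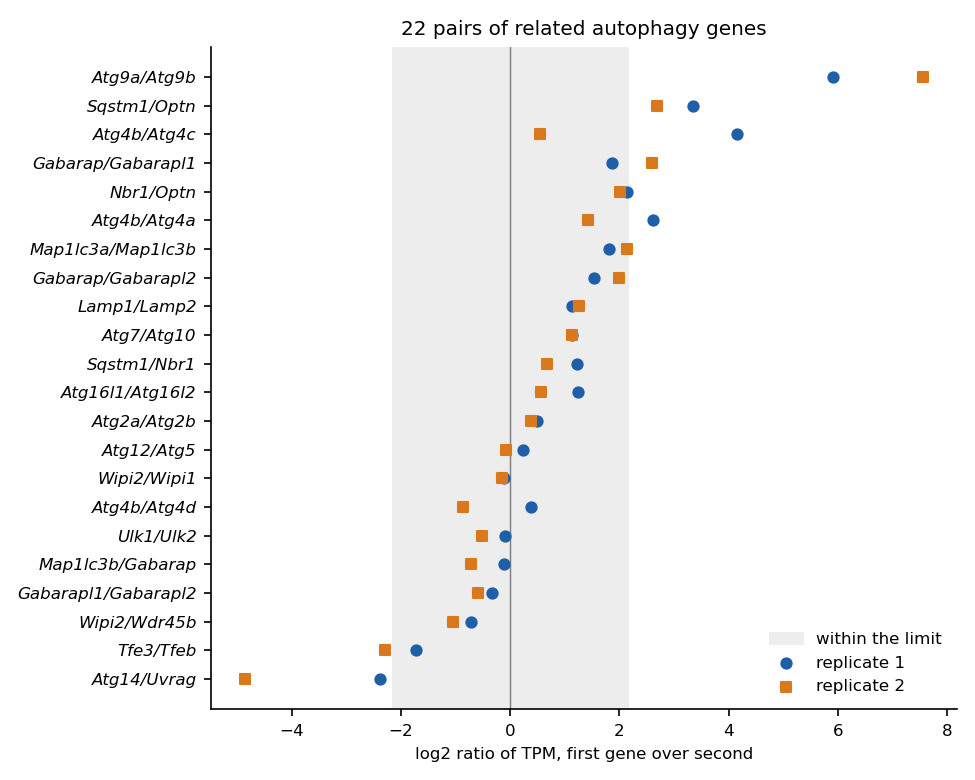
Log2 ratio of TPM, with 0.1 TPM added to each value, for 22 pairs of related genes, with a circle for replicate 1 and a square for replicate 2. The grey band spans the limit of 2.15 on either side of 0, and Atg9a over Atg9b, Sqstm1 over Optn and Atg14 over Uvrag have both points outside it.

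Most of the 38 genes differed by less than 2-fold between the pools. Differences are log2 ratios of TPM with 0.1 added, replicate 2 over replicate 1, and the median of all genes averaging at least 1 TPM was set to 0. Over the 37 members at that level they ran from -1.38 to 2.51, with 18 higher and 19 lower in replicate 2. Their median absolute difference was 0.29, and over all 11594 genes it was 0.40. In replicate 2, 2 members (5.41%) were at least 2-fold higher, where 10.1% of all genes were, and 3 (8.11%) were at least 2-fold lower, where 8.9% were. Those higher were Atg4c at 5.70-fold and Pik3r4 at 2.19-fold. Those lower were Rb1cc1 at 2.60-fold, Atg4b at 2.14-fold and Tfe3 at 2.04-fold. The intervals that the authors deposited with each TPM did not overlap between replicates for 25 of the 37 (67.6%), where 73.3% of all genes showed this.

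In expected counts scaled by library (TMM), which are not divided by length, fewer members were 2-fold apart, while the median absolute difference of the 37 was 0.30, much as in TPM. In counts 1 member (2.70%) was at least 2-fold higher in replicate 2, where 7.9% of all genes were, and none was 2-fold lower, where 6.6% were. The member was Atg4c, at a log2 difference of 2.03. Rb1cc1 drew 4893 and 3735 counts, a log2 difference of -0.46, while the effective length the authors assigned to it went from 2176 to 4081 bases. Pik3r4 drew 1602 and 2223 counts (0.40) with effective lengths of 2839 and 1668, and Atg4b 3003 and 2538 (-0.31) with 2272 and 3886. For these 3 genes the 2-fold difference in TPM is thus present per length and not in counts. Tfe3 was near the threshold by either measure, at -1.03 in TPM and -0.88 in counts. Effective lengths were at least 1.2 times apart for 11 of the 37 members (29.7%), where 25.1% of all genes showed this. All 11 have several transcripts, and among such genes the shares were 40.7% of 27 members and 34.4% of all. Among the 10 members with 1 transcript and a mean of 1 TPM the median absolute log2 difference was 0.16 in TPM and 0.16 in counts, and among the 27 with several it was 0.43 in TPM and 0.32 in counts.

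**Figure D3:**
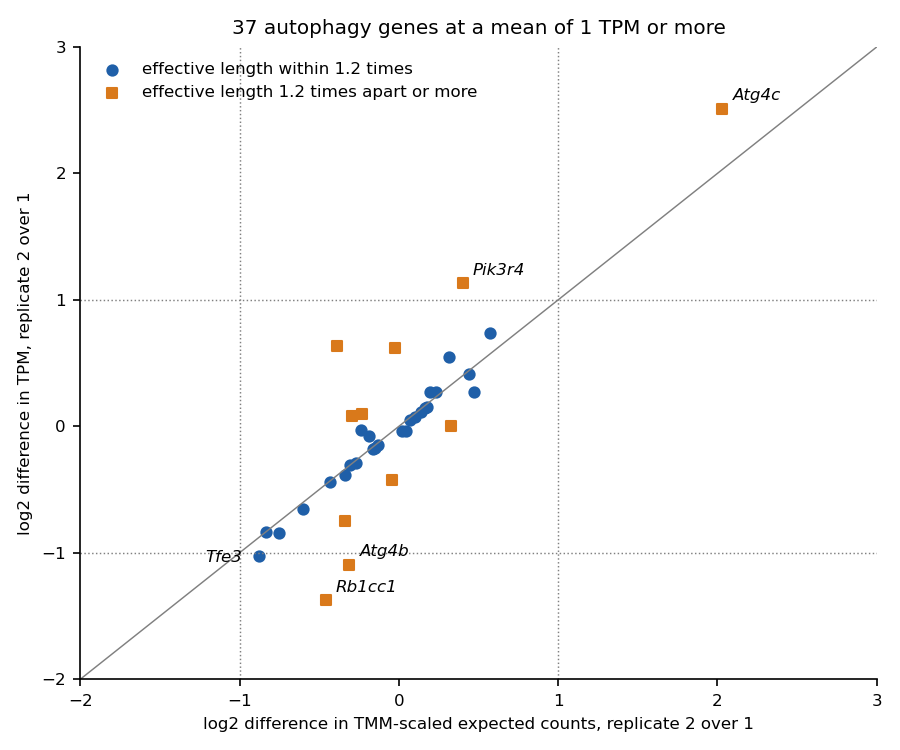
Log2 difference between the replicates in TPM (vertical) and in TMM-scaled expected counts (horizontal) for the 37 members that averaged at least 1 TPM, with dotted lines at 2-fold and a diagonal of equal difference. Atg4c is 2-fold apart on both axes, while Pik3r4, Rb1cc1, Atg4b and Tfe3 pass the line in TPM only, and squares mark the 11 genes whose effective lengths were at least 1.2 times apart.

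Several of these genes are read as many short or noncoding transcripts besides the coding one. The 38 genes have 224 transcripts in the tables, 11 genes with 1 each and up to 20 in Nbr1. Transcripts annotated as protein-coding with a complete reading frame held 82.2% of the members' TPM in replicate 1 and 70.7% in replicate 2, where over protein-coding genes at a mean of 1 TPM they held 88.3% and 87.4%. In expected counts these shares were 90.4% and 86.6% for the members and 93.0% and 92.3% for all. A major transcript, the same leader with 80% or more of the gene's TPM in both replicates, was found for 2 of 27 members with several transcripts (7.41%), where 29.5% of such genes had one. At a share of 60% there were 8, and no share over all such genes is given at that setting. The 2 were Map1lc3b, with Map1lc3b-201 at 95.3% and 93.6%, and Atg4a, with Atg4a-201 at 100% in both. In 9 of the 27 (33.3%) there was another leading transcript in each replicate, as in 33.8% of such genes, namely Ambra1, Atg13, Atg4b, Atg7, Atg9a, Becn1, Nbr1, Pik3r4 and Rb1cc1.

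**Figure D4:**
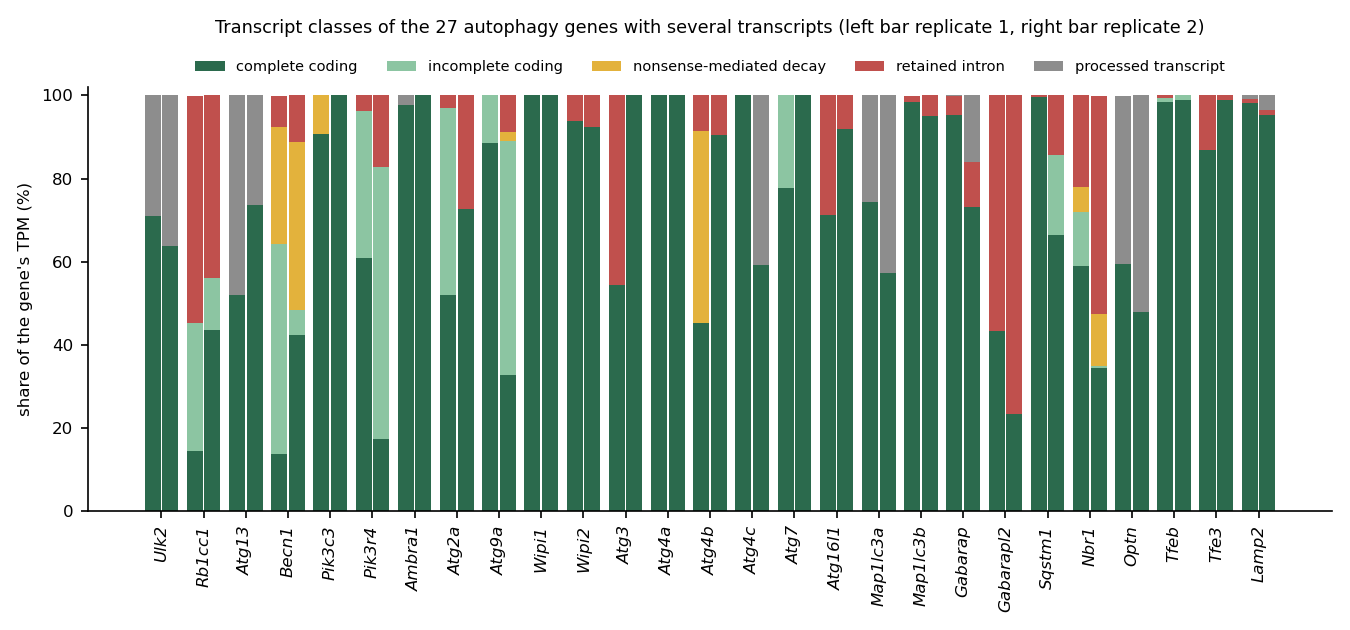
Share of each gene's TPM (percent) by annotated transcript class for the 27 members with several transcripts, with the left bar for replicate 1 and the right bar for replicate 2. Complete coding transcripts are under 50% in both bars for Rb1cc1, Becn1 and Gabarapl2, and near 100% for Wipi1, Atg4a and Ambra1.

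The leading transcript, by mean share, was not protein-coding for 2 members of 37 (5.41%), where this held for 7.96% of protein-coding genes at a mean of 1 TPM. In Gabarapl2 it was the retained-intron transcript Gabarapl2-203, 749 bases long, with 55.7% and 76.7% of the gene's TPM. The full coding transcript Gabarapl2-201 held 43.2% and 23.2%, which is 8.04 and 4.68 TPM. In counts the coding form had 1178 and the retained-intron form 503 in replicate 1, and 720 against 789 in replicate 2. In Becn1 the highest mean share was that of Becn1-201, a transcript annotated as a target of nonsense-mediated decay, at 24.9% and 6.49%. It led in neither replicate: Becn1-204, an incomplete coding model, led in replicate 1 at 29.5%, and Becn1-216, a coding transcript, in replicate 2 at 17.6%. Its 17 transcripts shared the reads so widely that complete coding forms held 13.6% of TPM in replicate 1 and 42.4% in replicate 2, or 2.59 and 9.89 TPM. Without replicate 2 the leader was noncoding for 4 members, Atg13, Atg4b, Gabarapl2 and Rb1cc1, and without replicate 1 for Gabarapl2 and Nbr1. No share over all genes is given for a single replicate.

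In other members a coding leader shared the gene with noncoding or incomplete forms. Map1lc3a-201, the coding transcript, was at 131 and 123 TPM, and the processed transcript Map1lc3a-203 at 44.9 and 92.2. The higher Map1lc3a level of replicate 2 was therefore in the noncoding form, and the coding form alone was slightly lower there. Optn-204, a processed transcript, held 38.8% and 45.8% of Optn, and Ulk2-202 held 29.0% and 36.3% of Ulk2. In Sqstm1, complete coding transcripts held 99.7% of TPM in replicate 1 and 66.4% in replicate 2, and in Atg9a 88.5% and 32.8%, where incomplete coding models held 56.3% in replicate 2.

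For Rb1cc1, Pik3r4 and Atg4b, 2-fold apart in TPM, a long coding transcript was close between replicates and a shorter form was not. Rb1cc1-201, the long coding transcript of 7607 bases, was at 3.08 and 3.59 TPM, while the retained-intron transcript Rb1cc1-206 was at 4.34 and 0. Pik3r4-201, a complete coding transcript of 4711 bases, was at 2.24 and 2.07 TPM, and Pik3r4-208, an incomplete coding model of 611 bases, at 1.89 and 7.90. Atg4b-201 was at 5.67 and 5.34 TPM, and Atg4b-204, annotated for nonsense-mediated decay, at 5.77 and 0. These 3 long transcripts were thus within 1.2 times of each other between replicates. Other long forms were not. Pik3r4-210, a complete coding transcript of 4756 bases, went from 0.84 to 0 TPM, and complete coding TPM of Pik3r4 as a whole from 3.26 to 2.07. Among retained-intron forms, Pik3r4-204 (4929 bases) went from 0 to 1.14 TPM and Rb1cc1-207 (4136 bases) from 1.42 to 0.11. For Atg4c the coding transcript Atg4c-203 itself went from 0.61 to 2.33 TPM.

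The rest of the pathway was detected to a like extent. Of 67 other genes in 6 lists, 63 were detected, and of 63 at a mean of 1 TPM 2 were at least 2-fold higher in replicate 2 and 2 lower, and the median log2 difference was -0.08. Among 11 further core genes 10 were detected, led by Wdr45b at 21.1 and 20.1 TPM and Tmem41b at 15.9 and 23.7, and Wdr45, a reader of the lipid mark, was higher in replicate 2 at 5.98 and 12.8. All 8 other receptors were detected, led by the ferritin receptor Ncoa4 at 46.2 and 36.4 TPM and Calcoco1 at 21.9 and 22.8. The endoplasmic reticulum receptor Tex264 was lower in replicate 2 at 31.7 and 8.04 TPM, with 1633 and 1133 counts.

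All 12 fusion genes were detected, with the SNARE gene Vamp8 at 28.5 and 18.5 TPM and the small GTPase Rab7 at 23.5 and 16.3. Vps39, a subunit of the HOPS tethering complex, was at 19.8 and 6.01 TPM, with 2732 and 2547 counts. Of 16 genes of the mTORC1 and AMPK kinases that control ULK1, 15 were detected and none at a mean of 1 TPM was 2-fold apart. The AMPK subunit Prkag1 was at 31.8 and 30.6 TPM, the mTORC1 subunit Akt1s1 at 35.9 and 21.6, and the mTOR inhibitor Deptor under 1 TPM at 0.63 and 0.27. Mitf, related to Tfeb, was at 17.3 and 17.6 TPM, and Tfec at 0.43 and 0.08, so Mitf and Tfeb were the higher genes of the family.

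Of 18 lysosomal enzymes and membrane proteins 17 were detected, with a summed level of 785 and 807 TPM. The protease gene Ctsd led at 325 and 339 TPM, above every one of the 38 members in both replicates, and Psap, the saposin precursor, was at 121 and 127. Cd63, a tetraspanin of late endosomes, was higher in replicate 2 at 10.4 and 24.1 TPM. The alpha-galactosidase gene Gla was below 1 TPM on average, at 0.13 and 1.08 TPM from 41 and 344 counts.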

How the data were processed

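The labels describe stranded paired reads of 101 bases from ribosome-depleted total RNA above 200 nucleotides with spike-ins, a preparation that keeps unspliced RNA. The deposited notes name mm10 and GENCODE M4; the aligner is not given in the sources used here. Column names are those of RSEM. The authors' expected counts are estimated counts per gene, not normalized, and their deposited TPM and FPKM are scaled by effective length and library. The percent share of each transcript and posterior estimates with bounds, of a level not given, are also the authors'.

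Names and coordinates came from GENCODE M21 by identifier, and all 224 member transcripts matched, 215 of them with equal length. Members and lists were chosen with earlier results of these data known. Of each other list the 2 highest genes and any gene 2-fold apart or near 0 are named. Expected counts, rounded to integers, were scaled by TMM (edgeR 4.0.16, R 4.3.3), and other steps used Python 3.11.15, numpy 2.4.6, pandas 2.3.3 and scipy 1.17.1. LAMP-2 forms were assigned from the translated ends of the transcripts. The calls of differences, pairs and major transcripts were tested on simulated data. For differences and pairs these held counting error only, with the same effective length of a gene in both libraries. They therefore do not test the calls against shifts in effective length or variation between replicates. Alternatives covered thresholds, pseudocounts, scaling, units and single replicates.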

Additional observations from a re-analysis of the deposited data

How the results depend on the processing

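No paired analysis was possible because there was 1 group, and a difference between 2 libraries has no version without a replicate. The count of detected members was between 24 (5 TPM) and 38 (expected count of 10), and 37 on either replicate alone. Members 2-fold apart numbered 5, and 3 with a pseudocount of 1 TPM or a mean of 5 TPM, 1 with expected counts scaled by TMM or by size factors, and 2 with TPM of complete coding transcripts, a setting chosen after seeing the data. In that setting Rb1cc1 went to 0.22 and Pik3r4 to -0.62, the reverse of their direction in total TPM, and Becn1 became 2-fold higher at 1.90. Pairs called unequal numbered 3, and, with the limit of 2.15 computed anew, 7 with a pseudocount of 1 TPM (limit 1.497) or with counts not divided by length (limit 1.84), 1 with the 99th percentile, 9 with the limit from genes at 10 TPM, and 5 on either replicate alone with the limit kept. Major transcripts numbered 2, and 8 at a share of 60%, 1 at a mean of 5 TPM, and 6 to 7 on a replicate alone. Noncoding leaders numbered 2, and 1 (Becn1) by share of expected counts, and 2 to 4 on a replicate alone; without replicate 2 they were Atg13, Atg4b, Gabarapl2 and Rb1cc1. The cause was not tested. Shares of all genes called are given above only for the main settings and for TMM-scaled counts. Counts of members under the other settings stand without such a background. Of 325 single-gene alternatives 309 kept their call and of 154 pair alternatives 133 did. The 309 are in part fixed in advance. Changes of the filter alone repeated a gene's value, as for Ulk1 at -0.148, and leaving out the centring moved every gene by 0.022.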
